A study of Mus musculus with 6 samples.

Results

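The platelet-derived growth factor (PDGF) genes are described here in whole embryonic mouse lungs with and without *Yap* in the epithelium. They are the 4 ligand genes *Pdgfa*, *Pdgfb*, *Pdgfc* and *Pdgfd* and the 2 receptor genes *Pdgfra* and *Pdgfrb*, taken by their symbols from a table of 24402 loci. All 6 genes were found, at 7 loci, because *Pdgfd* had 2. RNA came from lungs of C57BL/6 embryos at 12.5 *dpc* (days *post coitus*), with 3 wild-type libraries (control) and 3 libraries of the genotype Yap-flox/flox; Shh-Cre/+ (*Yap* mutant). The labels name no treatment. In the mutants, Cre made from the *Shh* locus removes *Yap* from the epithelium that lines the airways, and the mesenchyme keeps it. The mutants also carry only a single intact copy of *Shh*, whereas wild-type littermates have both. Whether a library came from a single embryo or from a pool is not given in the sources used here.

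The authors deposited a single number per genotype and locus, read as FPKM (fragments per kilobase of transcript, scaled to the total of mapped fragments), which corrects for transcript length and so allows levels of different genes to be set side by side. The spread between the 3 libraries of a genotype and the depth of each library are unknown, so no value below has an error and no difference was tested. As a yardstick, 12716 loci averaged 1 FPKM or more over both genotypes. Their median log2 ratio of *Yap* mutant over control was -0.01, and the 5th and 95th percentiles of the ratio were -0.44 and 0.54. *Yap1* itself was at 76.1 FPKM in control and 65.6 FPKM in mutant lungs, a value that includes the mesenchyme and does not by itself show the deletion.

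PDGF chains are secreted as disulfide-linked dimers and act through receptor tyrosine kinases that pair up when a ligand binds. The A and C chains act mainly through PDGF receptor alpha, the B chain binds both receptors, and the D chain acts mainly through receptor beta. In the developing lung, PDGF-A is known as a signal from epithelium to mesenchyme that carries receptor alpha, which later gives rise to alveolar myofibroblasts, and PDGF-B is known as an endothelial signal that draws pericytes, which carry receptor beta, to vessels.

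The ligand genes *Pdgfa* and *Pdgfc* were lower in *Yap* mutant lungs and the other members were close to their control values. *Pdgfc* was at 23.3 FPKM in control and 11.2 FPKM in mutant lungs, 2.08-fold lower (log2 ratio -1.06). *Pdgfa* was at 11.9 FPKM in control and 6.35 FPKM in mutant lungs, 1.87-fold lower (log2 ratio -0.90). The mutant level was thus 48.0% of control for *Pdgfc* and 53.5% for *Pdgfa*. These were the 2 of 6 members at least 1.5-fold lower, against 3.46% of all loci averaging 1 FPKM or more, and 0 of 6 were at least 1.5-fold higher, against 4.61% of those loci. Where a difference of 25% of the smaller value was asked for, 2 members were lower (background 6.95%) and 0 were higher (background 9.99%). At a fold of 2, only *Pdgfc* was lower (background 1.38%) and 0 were higher (background 2.24%).

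Few loci had a ratio as low as these ligands. Of the 12716 loci, 157 had a ratio at or below that of *Pdgfc*, itself included, and 210 had one at or below that of *Pdgfa*. Low levels give wider ratios, so the loci whose mean FPKM lay within 2-fold of the member's were also counted. Of 5219 such loci for *Pdgfc*, 29 were as low, and of 4832 for *Pdgfa*, 59 were as low. These counts place the members among other loci and are not a test across libraries. In whole-lung RNA, fewer cells of a type and less RNA per cell cannot be told apart.

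**Figure D1:**
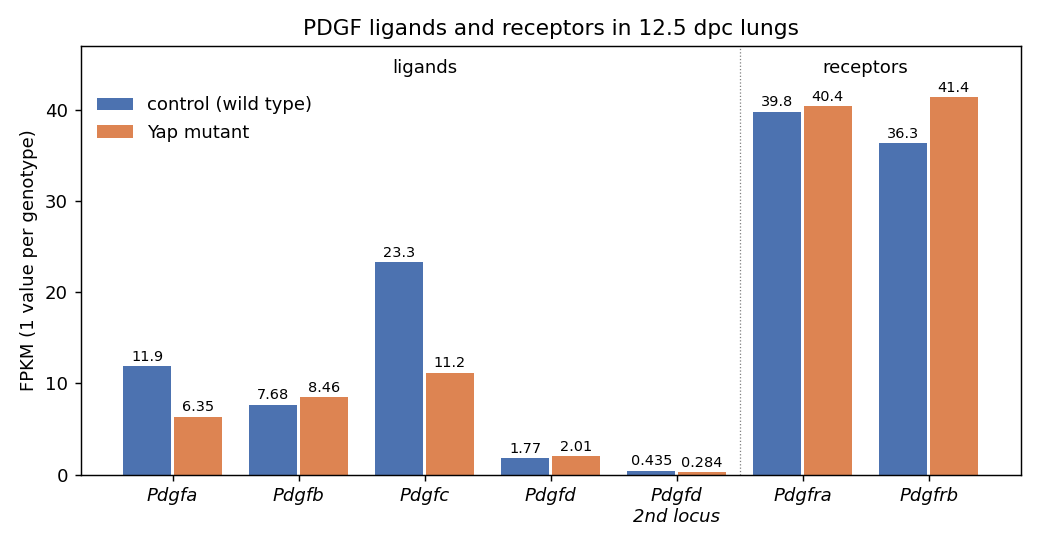
Bars give the authors' FPKM of each PDGF ligand and receptor locus in control and *Yap* mutant lungs (y axis, linear from 0), with 1 value per genotype and no error. *Pdgfa* and *Pdgfc* were lower in the mutants (6.35 against 11.9 and 11.2 against 23.3 FPKM). The paired bars of the other genes were close to each other, except at the second *Pdgfd* locus (0.284 against 0.435 FPKM).

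*Pdgfa* lies on the minus strand of chromosome 5 from 138976014 to 138997370 and *Pdgfc* on the plus strand of chromosome 3 from 81036416 to 81214040, both protein-coding in GENCODE M21 on GRCm38. The promoters of both are shown because their transcripts were the lower ones and because *Yap* acts through TEAD factors, whose short binding motif is GGAATG. Sequences are RefSeq's on GRCm38.p6, the 250 bases before a transcript start, on the strand of the gene. In the first, at chr3:81036166-81036415, capitals mark a TEAD motif. In the second, at chr5:138994945-138995194, capitals mark GC boxes (GGGCGG on either strand), the kind of site that SP1 binds and that the promoter of *Pdgfa* is known to hold.
*Pdgfc*: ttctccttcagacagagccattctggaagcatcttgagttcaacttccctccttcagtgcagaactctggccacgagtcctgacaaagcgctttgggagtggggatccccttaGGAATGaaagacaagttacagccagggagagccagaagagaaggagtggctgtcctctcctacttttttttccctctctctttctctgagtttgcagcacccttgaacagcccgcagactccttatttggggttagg
*Pdgfa*: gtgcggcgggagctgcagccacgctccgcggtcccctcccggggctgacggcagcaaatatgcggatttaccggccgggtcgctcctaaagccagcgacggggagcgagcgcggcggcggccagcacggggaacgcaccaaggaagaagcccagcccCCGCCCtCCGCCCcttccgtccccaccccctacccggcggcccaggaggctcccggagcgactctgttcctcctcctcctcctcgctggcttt

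RefSeq promoter windows of 300 bases, which reach 50 bases past the start, matched 4 of the 6 members (*Pdgfa* at 2 starts, *Pdgfc*, *Pdgfd* and *Pdgfra*). *Pdgfc* had 2 TEAD motifs when both strands were searched, one whose first base is at position -137 from the start and one, on the opposite strand, that begins at position 39 of the transcript. Of 32851 windows in the RefSeq table, 14.7% held at least 1 TEAD motif and 1.36% held 2 or more. The windows of *Pdgfa*, *Pdgfd* and *Pdgfra* held 0. The GC box was in both windows of *Pdgfa*, 2 in the one shown and 1 in the other, and in 35.7% of all windows. No window of a member held both motifs. The window of *Pdgfa* shown was 73.3% G and C, the highest share of the 5 windows. A match is a run of letters, not a bound site, and its absence says nothing of sites elsewhere.

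*Pdgfb*, the endothelial ligand, was at 7.68 FPKM in control and 8.46 FPKM in mutant lungs (log2 ratio 0.14). Of 4639 loci of like level, 1094 had a ratio as high. It lies on the minus strand of chromosome 15 from 79995874 to 80014977. *Pdgfd*, whose chain acts mainly through receptor beta, was the lowest of the ligands, at 1.77 FPKM in control and 2.01 FPKM in mutant lungs (log2 ratio 0.18). Of 2509 loci of like level, 961 were as high. At this level the 5th and 95th percentiles of the ratio were -0.86 and 1.16, much wider than over all loci. A second locus listed as *Pdgfd*, with the same coordinates, was at 0.435 FPKM in control and 0.284 FPKM in mutant lungs, under the minimum of 1 FPKM. The table gives no strand, and which transcripts the second locus holds is not stated. Summing both loci gave a log2 ratio of 0.056. *Pdgfd* lies on the plus strand of chromosome 9 from 6168584 to 6378850, a span that also holds *Ddi1*.

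The receptors were the most abundant members and showed little difference. *Pdgfra* was at 39.8 FPKM in control and 40.4 FPKM in mutant lungs (log2 ratio 0.02). *Pdgfrb* was at 36.3 FPKM in control and 41.4 FPKM in mutant lungs (log2 ratio 0.19). Of 3625 loci of a level like that of *Pdgfrb*, 250 had a ratio as high, and 1041 of 3504 did for *Pdgfra*. *Pdgfrb* was therefore nearer to the edge of its class than *Pdgfra*, at 1.14-fold higher in the mutants, and without values per library this difference could not be set against replicate error. By mean FPKM, *Pdgfra* and *Pdgfrb* ranked at percentiles 90.8 and 90.5 of all 24402 loci, those under 1 FPKM included. *Pdgfra* lies on chromosome 5 from 75152292 to 75198215 and *Pdgfrb* on chromosome 18 from 61045150 to 61085061, both on the plus strand.

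By level, the order in control lungs was *Pdgfra*, *Pdgfrb*, *Pdgfc*, *Pdgfa*, *Pdgfb* and *Pdgfd*. In *Yap* mutant lungs it was *Pdgfrb*, *Pdgfra*, *Pdgfc*, *Pdgfb*, *Pdgfa* and *Pdgfd*, so 2 neighbouring pairs traded places. The receptors differed by 1.10-fold in control, and whether such neighbours differ beyond the spread of their libraries is unknown. *Pdgfc* was 1.96 times *Pdgfa* in control and 1.76 times in mutant lungs, so the ratio of these ligands changed less than either level did.

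The makeup of the ligand transcripts shifted. The 4 ligands summed to 44.6 FPKM in control and 28.0 FPKM in mutant lungs. *Pdgfc* made up 52.2% of that sum in control and 39.9% in the mutants, and *Pdgfa* 26.6% and 22.7%. The share of *Pdgfb* went the other way, from 17.2% to 30.2%, with a difference of only 0.789 FPKM in its own level, and that of *Pdgfd* from 3.97% to 7.17%. *Pdgfa* and *Pdgfc* together thus went from 78.8% to 62.6% of ligand FPKM.

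Receptor transcripts did not follow. Their sum was 76.1 FPKM in control and 81.8 FPKM in mutant lungs, and *Pdgfra* was 52.3% and 49.4% of it. Summed *Pdgfa* and *Pdgfc* FPKM per FPKM of *Pdgfra* was 0.884 in control and 0.434 in the mutants. Summed *Pdgfb* and *Pdgfd* per FPKM of *Pdgfrb* was 0.260 and 0.253. *Pdgfb* was assigned here to receptor beta alone, although the B chain binds both receptors. Under that assignment, the transcript balance differed on the side of receptor alpha and was nearly level on the side of receptor beta. These are ratios of transcript levels in whole lungs and do not measure protein.

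**Figure D2:**
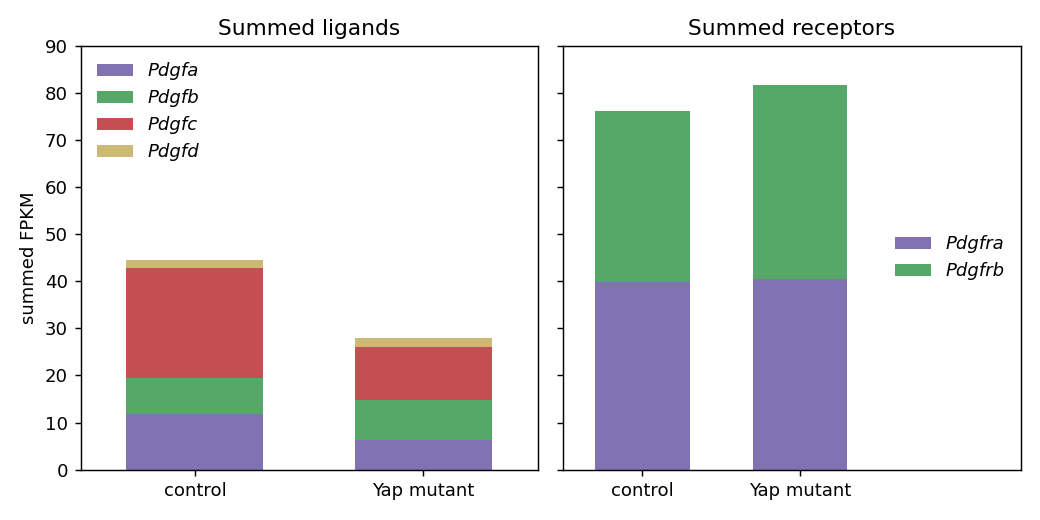
Stacked bars give summed FPKM (y axis, linear from 0) of the 4 ligands (left) and the 2 receptors (right) in control and *Yap* mutant lungs, 1 value per genotype. The ligand sum was 44.6 FPKM in control and 28.0 FPKM in the mutants. *Pdgfc* and *Pdgfa* together were 17.6 FPKM lower, more than the gap of 16.6 FPKM, while the receptor sums were 76.1 and 81.8 FPKM.

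**Figure D3:**
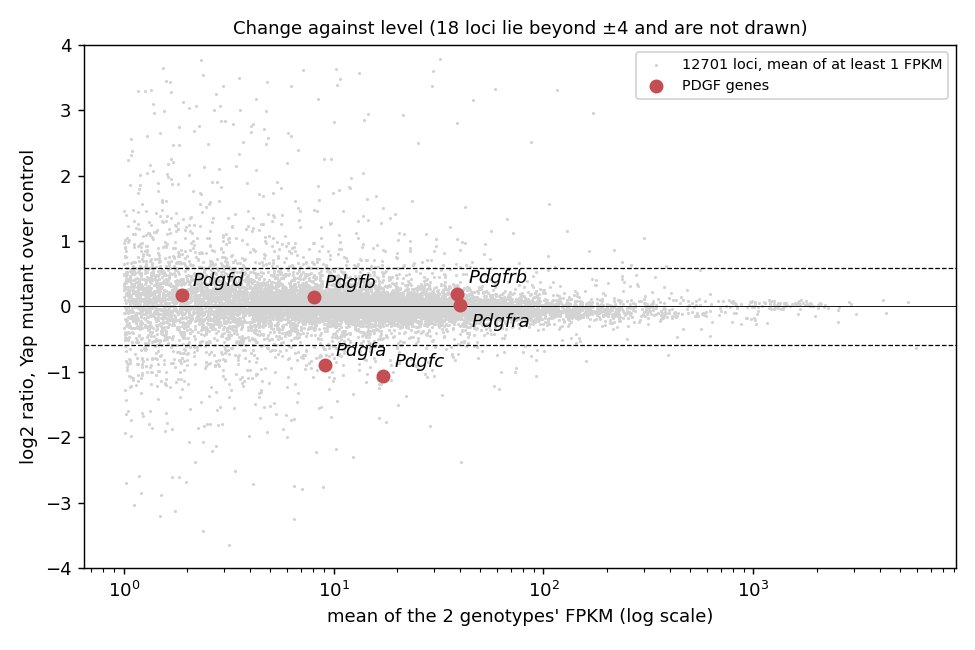
Each grey point is a locus averaging 1 FPKM or more, by mean FPKM (x axis, log scale) and log2 ratio of *Yap* mutant over control (y axis). Red points are the PDGF genes, dashed lines mark a 1.5-fold difference, and 18 loci beyond the axis and 15 listed at 0 in a genotype are not drawn. *Pdgfa* and *Pdgfc* lie below the lower dashed line, at -0.90 and -1.06, and the other 4 lie between 0.02 and 0.19.

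Other genes of the pathway had a median ratio close to that of all loci. Together, 5 lists hold 79 genes of ligand processing, receptor adaptors, attenuation, relay and immediate-early response, of which 74 averaged 1 FPKM or more. Of these, 41 were lower and 33 higher in the mutants, with a median log2 ratio of -0.02 beside -0.01 over all loci. At least 1.5-fold lower were 4 of them (*A2m*, *Ptprj*, *Jun* and *Cyr61*), or 5.41% beside 3.46% of all loci, and 1 (*Furin*) was at least 1.5-fold higher, or 1.35% beside 4.61%.

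Among 11 genes that process or hold PDGF ligands, 5 were higher and 6 lower, with a median of -0.05. *Furin*, a convertase that cleaves the propeptides of the A and B chains, was at 22.1 FPKM in control and 36.3 FPKM in mutant lungs (log2 ratio 0.72). The related convertase gene *Pcsk6* was at 6.68 and 9.99 FPKM, a log2 ratio of 0.58, just under 1.5-fold. *Plat*, whose product tissue plasminogen activator releases active PDGF-C, was at 24.5 and 23.7 FPKM. *Plau* and *St14*, which encode proteases that cleave PDGF-D, had log2 ratios of -0.09 and -0.30. *A2m*, a plasma protein gene whose product binds PDGF-B, was low, at 2.56 and 1.19 FPKM (log2 ratio -1.10). *Sparc*, which encodes a matrix protein that binds PDGF-B, was at 338.9 and 328.1 FPKM. *Lrp1*, a coreceptor of receptor beta, had a log2 ratio of 0.45.

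Of 23 adaptors and enzymes that dock on the activated receptors, 15 were lower and 8 higher, beside 6583 lower and 6133 higher of all 12716 loci. In this list 0 differed by 1.5-fold, beside 3.46% of all loci lower and 4.61% higher. At those shares, few or 0 such loci would be found in a list this short. Their log2 ratios lay between -0.26 and 0.40, with a median of -0.02, beside a ratio of -1.06 for *Pdgfc*. The extremes were *Pik3cb* and *Stat5a*, both under 2 FPKM. *Shc1* shares its locus with *Pygo2*, so its own value is uncertain. The 14 genes of the RAS to ERK and PI3K to AKT relay, 9 lower and 5 higher, also had 0 past 1.5-fold.

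Of 12 genes that damp the receptors, 8 were higher and 4 lower. *Ptprj*, a receptor phosphatase that removes phosphate from receptor beta, was the exception in size, at 3.64 and 1.98 FPKM (log2 ratio -0.88). *Cbl*, which encodes the ubiquitin ligase that marks the receptors for breakdown, was at 8.09 and 11.4 FPKM (log2 ratio 0.50). Immediate-early genes, which growth factors induce within minutes, did not share a direction, since 7 of the 14 above 1 FPKM were lower and 7 higher. *Jun* was at 36.4 and 21.2 FPKM (log2 ratio -0.78) and *Cyr61*, also a known YAP target, at 8.82 and 5.18 FPKM (log2 ratio -0.77), while *Myc* was at 35.4 and 49.7 FPKM (log2 ratio 0.49). *Fos*, *Fosb*, *Fosl1*, *Egr2* and *Egr3* were under 1 FPKM.

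**Figure D4:**
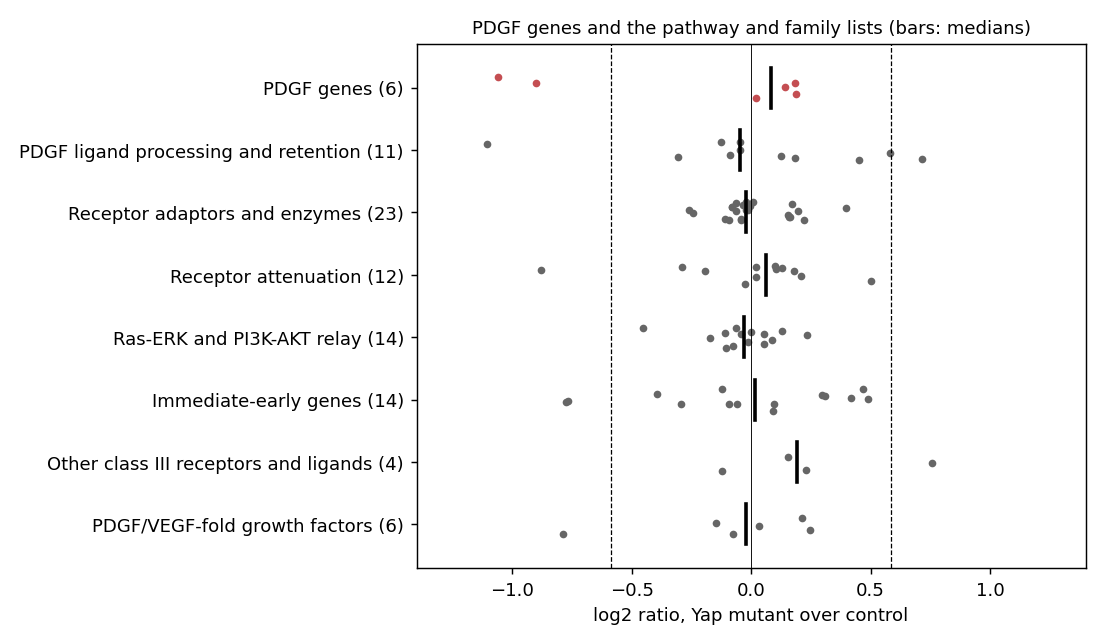
Each point is a gene averaging 1 FPKM or more, by log2 ratio of *Yap* mutant over control (x axis), in rows for the PDGF genes (red) and the pathway and family lists (grey, number of loci in brackets). Black bars are medians and dashed lines mark 1.5-fold. The adaptor and relay lists lie wholly within the dashed lines, and 2 of the 6 PDGF genes lie to the left of them. Of all loci averaging 1 FPKM or more, 3.46% lie to the left and 4.61% to the right.

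The nearest relatives were set beside the members. *Kit*, which encodes a receptor of the same class and is the next locus above *Pdgfra* on chromosome 5, was at 8.35 FPKM in control and 14.1 FPKM in mutant lungs (log2 ratio 0.76). *Csf1r*, also of this class and next to *Pdgfrb*, was at 6.40 and 7.51 FPKM (log2 ratio 0.23). *Flt3* was below 1 FPKM. Among growth factors with the same fold as PDGF, *Pgf* (placental growth factor) was at 7.79 and 4.51 FPKM (log2 ratio -0.79), whereas *Vegfa*, *Vegfb*, *Vegfc* and *Figf* had log2 ratios between -0.15 and 0.25. *Figf* shares its locus with *Pir*.

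The loci next to *Pdgfa* and *Pdgfc* did not show the same ratio. The flanking loci of *Pdgfa* with at least 1 FPKM, *Fam20c* and *Prkar1b*, had log2 ratios of -0.02 and 0.10. Those of *Pdgfc*, *Glrb* and *Ctso*, had ratios of -0.13 and 0.13. The loci beside *Pdgfb* (*Apobec3* and *Rpl3*) and *Pdgfd* (*Msantd4* and *Dcun1d5*) and the one below *Pdgfra* (*Chic2*) had ratios between -0.10 and 0.08. The locus below *Pdgfrb*, *Camk2a*, which encodes a calcium-dependent kinase, was at 1.17 FPKM in control and 3.44 FPKM in mutant lungs (log2 ratio 1.56). In the table, the spans of both ligand loci reach past the genes. That of *Pdgfc* begins at 81033217, within a noncoding gene (*Gm42476*) upstream. Antisense genes overlap the spans of *Pdgfa* (*6330403L08Rik*), *Pdgfc* (*Gm16000*), *Pdgfb* (*Gm41361*) and *Pdgfra* (*Gm42802*), and 0 of these had a row of its own. The libraries were stranded, and whether counting used the strand is not stated, so their part in these values was not tested.

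Marker genes of the cell types that make or receive PDGF moved unevenly, and these values belong beside those of the members. Of 18 epithelial loci, 16 were lower in the mutants, 12 of them by at least 1.5-fold, and 2 (*Id2* and *Sftpc*) were at least 1.5-fold higher. The median log2 ratio was -0.62, over ratios from -2.76 for *Shh*, the locus that carries Cre, to 0.97 for *Sftpc*. Among the lower loci, *Cdh1* (-0.20) and *Sox9* (-0.22) changed least. The summed level was 686.1 FPKM in control and 592.8 FPKM in mutant lungs, a sum that includes the higher value of *Id2*. All 18 were detected in both genotypes, among them *Nkx2-1*, the defining transcription factor gene of lung epithelium, at 61.9 and 35.9 FPKM. The 3 most abundant were *Id2* (117.7 and 211.0 FPKM), *Cldn6* (98.0 and 64.7 FPKM) and *Epcam* (74.9 and 55.6 FPKM). *Sftpc*, the surfactant protein C gene, was at 28.4 and 55.8 FPKM. *Pdgfa*, an epithelial product in the embryonic lung, had a lower ratio than 13 of these 18 loci, and *Pdgfc* than 15. Relative to the epithelial median, a comparison added after seeing the data, *Pdgfa* was at -0.28 and *Pdgfc* at -0.44 on the log2 scale. What part of the lower ligand values goes with epithelial RNA was not tested.

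The smooth muscle list was the lowest, and all 7 loci above 1 FPKM were lower, 5 of them by at least 1.5-fold. Its median was -1.06, over log2 ratios from -2.38 to -0.33, and was -1.17 with no minimum level. Of the 7 loci, 5 were at or below the ratio of *Pdgfa*, and 5 at or below that of *Pdgfc*. Its sum was 294.6 FPKM in control and 127.4 FPKM in mutant lungs, and *Acta2* (125.2 and 59.9 FPKM), *Actg2* (68.0 and 13.1 FPKM) and *Tagln* (40.9 and 19.6 FPKM) led it. Smooth muscle and myofibroblast lineages are among the cells in which PDGF receptors are known to act. The part of smooth muscle RNA in the ligand values was not tested.

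The mesenchymal list, the compartment that carries *Pdgfra*, was mixed, with 10 higher and 8 lower of 18 loci and a median of 0.07 beside 0.02 for *Pdgfra* and 0.19 for *Pdgfrb*. The collagens *Col3a1*, *Col1a2* and *Col1a1*, each more abundant than any PDGF gene, had log2 ratios between -0.02 and 0.11. Over the whole list, 5 of 18 loci were at least 1.5-fold lower, beside 3.46% of all loci averaging 1 FPKM or more. Another 2 were at least 1.5-fold higher, beside 4.61%. The 2 higher ones were *Fgf10* (10.4 and 26.6 FPKM, log2 ratio 1.35) and *Fn1* (59.2 and 93.6 FPKM). *Tcf21* was counted at both of its loci, and with only the higher one 4 of 17 loci were at least 1.5-fold lower and the median was 0.11. The lowest, *Gli1* (log2 ratio -1.03) and *Foxf1* (83.5 and 41.6 FPKM), are known Hedgehog targets in the lung. *Shh*, the locus that carries Cre, was at 15.6 FPKM in control and 2.31 FPKM in mutant lungs, 6.76-fold lower. The paper, which also found lower *Shh* by qPCR, states that the Cre allele contributed but was probably not the only source of the reduction. *Gli1*, *Foxf1* and *Shh*, like *Fgf10* and *Fn1*, were picked out after their values were seen. The part of the *Shh* allele in the values of the PDGF genes cannot be told apart from that of *Yap*. No locus of the list was as low as *Pdgfc*, and 3 of the 18 were as low as *Pdgfa*.

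Endothelial markers had ratios near that of *Pdgfb*, as did several other lists. Of 12 loci, 11 were slightly higher and 1 (*Emcn*) lower, with a median of 0.15 beside 0.14 for *Pdgfb*, and 6 of the 12 were at or below the ratio of *Pdgfb*. *Egfl7*, *Cldn5* and *Cdh5*, the most abundant, had log2 ratios of 0.10, 0.20 and 0.14. Pericyte markers, whose cells carry *Pdgfrb*, were wider apart, with 7 of 9 loci higher, 4 of them by at least 1.5-fold, and a median of 0.27, which was 0.12 over loci averaging 5 FPKM or more. The pericyte marker *Rgs5* was 1.64-fold lower, at 13.9 and 8.46 FPKM. *Notch3* had a log2 ratio of -0.03 and *Mcam* was at 25.3 and 30.5 FPKM, while *Des* was at 17.6 and 37.7 FPKM. *Higd1b* was near 0 in control and listed at 0 in mutant lungs. *Des* and *Abcc9*, both among the higher loci, are also expressed in heart muscle.

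Markers of cells that a dissected lung may carry along also differed. All 9 cardiac muscle loci were at least 1.5-fold higher in the mutants, with sums of 120.2 FPKM in control and 881.3 FPKM in mutant lungs, led by *Myl7* (39.3 and 305.9 FPKM), *Myl4* (21.3 and 210.3 FPKM) and *Actc1* (log2 ratio 1.34). Liver genes summed to 9.44 and 41.4 FPKM, with 3 of 4 loci above 1 FPKM at least 1.5-fold higher (*Afp*, *Ttr* and *Apoa1*). *Afp* and *Ttr* made up most of the sum in the mutants (22.3 and 13.5 FPKM), whereas *Alb*, the albumin gene, was at 1.28 and 1.14 FPKM, and *Apoa2* and *Serpina1a*, both under 1 FPKM, were lower in the mutants. No locus of either list was at 0. Platelets store PDGF, and of 5 megakaryocyte and platelet loci 3 were higher and 2 lower, with a median of 0.13. With a minimum of 5 FPKM the median was -0.26, over *Pf4* (-0.02) and *Gp1bb* (-0.50) alone. *Gp1bb* shares its locus with *Sept5*. Of 6 glial and neuronal loci, 5 were lower, with *Tubb3* at 4.46 and 2.52 FPKM. The medians of the macrophage, mesothelial and erythroid lists lay between 0.15 and 0.16, and that of the macrophage list was -0.018 with a minimum of 5 FPKM. The part of these tissues in the values of the PDGF genes was not tested.

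**Figure D5:**
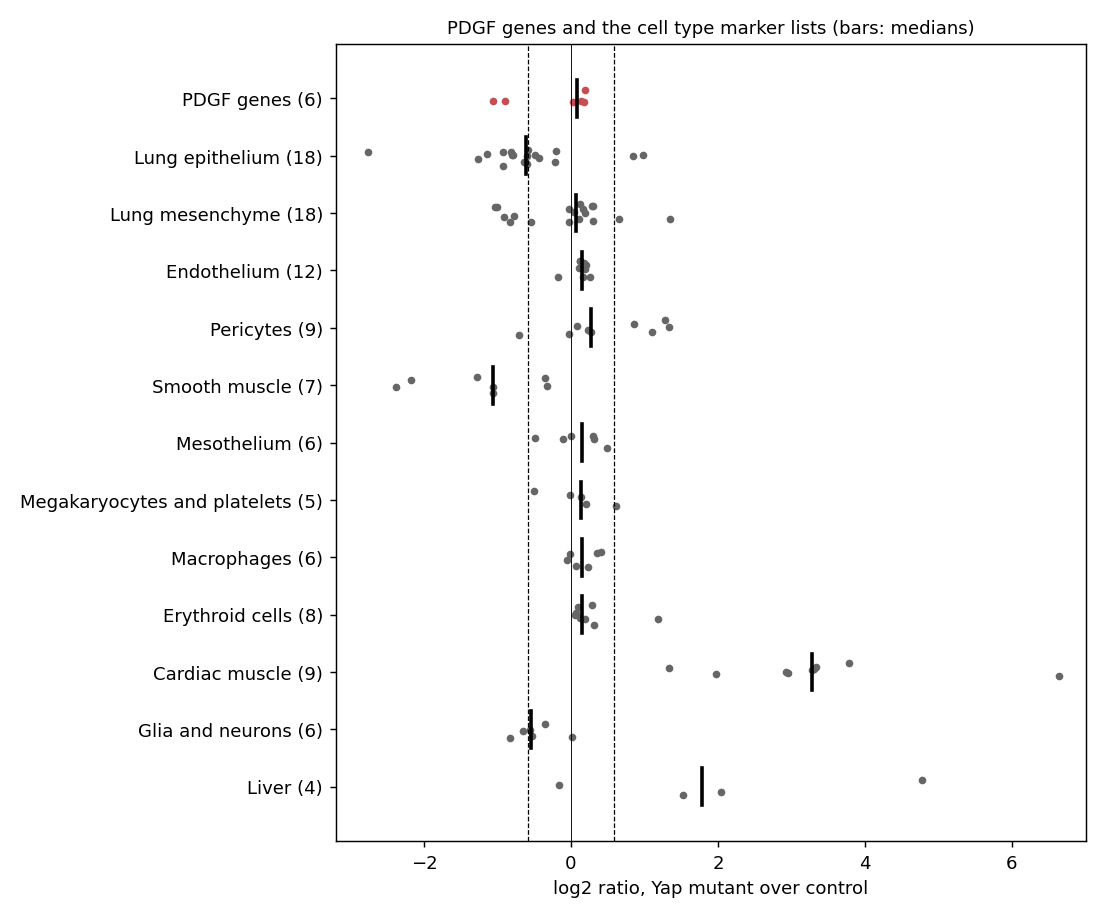
Each point is a marker gene averaging 1 FPKM or more, by log2 ratio of *Yap* mutant over control (x axis), in rows for the PDGF genes (red) and the cell type lists (grey, number of loci in brackets). Black bars are medians and dashed lines mark 1.5-fold. The epithelial and smooth muscle medians were -0.62 and -1.06, those of mesenchyme and endothelium 0.07 and 0.15, and that of cardiac muscle 3.27.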

How the data were processed

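RNA of whole lungs at 12.5 *dpc* was sequenced from 3 control and 3 *Yap* mutant libraries, as stranded paired-end libraries on HiSeq instruments. The submitters' processing notes name TopHat, Cuffdiff and mm10. The authors' deposited tables give 1 FPKM value per genotype, summarised over its libraries, and the unit was read from their Cuffdiff layout. Depth per library is not given. Further columns hold the authors' own fold changes and p-values and were not used. No column belonged to other samples (0).

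The log2 ratio of *Yap* mutant over control was computed with no pseudocount. Counts used a 1.5-fold difference and loci averaging 1 FPKM or more (12716 of 24402). Where *Pdgfd* had 2 loci, the higher was used, while the lists kept every locus of a gene. Locus starts count from 0 in the table (after adding 1, 9315 of 21012 single-symbol loci start where RefSeq does, and 618 do as written), so 1 was added. Listed *Hras* and *Adgre1* were found under *Hras1* and *Emr1*.

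Named genes were the members, pathway and family genes at least 1.5-fold apart, the 3 most abundant markers of epithelium, mesenchyme, endothelium and pericytes, such markers of other cell types when 1.5-fold apart, and flanking loci. Further genes of the lists were named after their values were seen. With 2 values per gene, no gene was sought for a like pattern. The members and lists were chosen with earlier results of these data known. The counting was tested on simulated data with planted 2-fold changes and very little noise. That checks the arithmetic only, since the ratios of the real loci were spread more widely. Python 3.11.15, numpy 2.4.6, pandas 2.3.3 and matplotlib 3.10.9 were used.

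Alternatives were a pseudocount of 0.1 or 1 FPKM, ratios centred on the median of all loci or of the mesenchymal list, a difference of 25% or 2-fold, a minimum of 5 FPKM or none, and the second deposited table. Ratios relative to the epithelial median, summed *Pdgfd* loci and a single *Tcf21* locus were added after seeing the data.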

Additional observations from a re-analysis of the deposited data

How the results depend on the processing

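No paired analysis was possible because the deposited tables hold 1 value per genotype, and for the same reason no replicate could be left out. With no error known, a log2 ratio was said to move when it changed by at least 0.1. No member moved under a pseudocount of 0.1 or 1 FPKM. Centring on the median of all loci (-0.01) or of the mesenchymal list (0.07) shifts every ratio by less than 0.1, so by construction it could move none. The second table lists *Pdgfa* and *Pdgfc* with the same ratios, so it is no independent check. Relative to the epithelial median, which was added after seeing the data, the log2 ratios became -0.28 for *Pdgfa*, 0.76 for *Pdgfb*, -0.44 for *Pdgfc*, 0.80 for *Pdgfd*, 0.64 for *Pdgfra* and 0.80 for *Pdgfrb*, by construction each shifted by the same amount. Summing both loci of *Pdgfd*, also added, gave 0.056. At a fold of 2 the number of lower members was 1 in place of 2, and at a difference of 25% it stayed 2. The share of loci at least 1.5-fold lower was 8.29% with no minimum level and 1.93% with a minimum of 5 FPKM, and that of loci at least 1.5-fold higher was 11.9% and 2.28%, so the background narrows as levels rise. The median of the list of ligand processing genes was 0.15 with a minimum of 5 FPKM, and that of the immediate-early genes -0.11. With the same minimum the megakaryocyte and platelet median was -0.26, the macrophage median -0.018 and the pericyte median 0.12. With no minimum they were 0.27 for megakaryocytes and platelets, 0.025 for macrophages and 0.31 for mesothelium. The liver median was 0.83 with no minimum in place of 1.78. With a minimum of 5 FPKM it was 3.41, over *Afp* and *Ttr* alone. The smooth muscle median was -1.17 with no minimum in place of -1.06. With a pseudocount of 1 FPKM the glial and neuronal median was -0.32 in place of -0.55. Over all lists, 80 medians moved by less than 0.1 and 15 by more.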

Other observations

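All 6 values in the table that are written with more than 6 significant digits belong to *Yap* mutant lungs, and 0 of them belong to PDGF genes. They are those of *Myl6*, *Lpar3*, *Myl3*, *Actc1*, *Acta1* and *Myl2*, and the cause was not tested. *Actc1* is in the cardiac list, whose median log2 ratio over the other 8 loci was 3.29. The second deposited table holds 2395 of the loci, of which 2370 have both values within 1% of those used here, and both values of each PDGF locus in it are among these.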
